A study of Bos taurus with 81 samples.

Results

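Chromatin that was open in both lineages of the bovine blastocyst but carried neither H3K4me3 nor H3K27ac is described here. The regions were selected on the peak lists themselves. A shared open stretch was a run of at least 200 bp on autosomes 1 to 29 that lay inside an ATAC-seq peak in all 6 libraries of the blastocyst's inner cell mass (ICM) and of its outer layer, the trophectoderm (TE). There were 57668 such stretches, and 10054 of them (17.4%) overlapped no H3K4me3 peak and no H3K27ac peak in any of the 12 lists from whole blastocysts (BL), ICM and TE. These 10054 are called no-active stretches below, and the other 47614, which overlapped an active peak in at least 1 of those 12 lists, are called active stretches. The no-active stretches covered 3.53 Mb, or 0.142% of the 2488 Mb autosomal span, and the active stretches covered 34.3 Mb. Since the choice fixed ATAC signal in ICM and TE at 100% and active marks in BL, ICM and TE at 0, those values are part of the definition and no result.

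The series profiled in vitro produced cattle embryos by CUT&Tag, in which an antibody guides a transposase to a histone mark, and by ATAC-seq, in which free transposase enters accessible DNA. Oocytes came from slaughterhouse ovaries and were matured and fertilized in culture with frozen semen. Each library held about 500 oocytes or 1000 to 1500 blastomeres, so every library pooled many embryos. H3K4me3, H3K27ac, H3K27me3 and H3K9me3 each had 2 libraries in each of 9 groups, and ATAC had 3 libraries in each of BL, ICM and TE, giving 81 peak lists.

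The groups were immature oocytes at the germinal vesicle stage (GV), embryos of 2 cells (2C) taken 32 h after insemination, 4 cells (4C) at 44 h and 8 cells (8C) at 56 h, morulae (MO) at 122 h and blastocysts at 172 h. A further group of embryos with 8 cells (8A) was grown with α-amanitin, an inhibitor of RNA polymerase II, at 50 µg/ml and taken at the same 56 h. The ICM was freed by immunosurgery and the TE was cut off with a micro scalpel, and no further check of their purity was made here, since the lists hold no transcript levels. No line, strain or transgene was named in the labels. Nothing in the labels says that libraries of a group came from separate collections, so the p-values measure the spread between these libraries only, which may be technical.

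As background, H3K4me3 is a mark of promoters and H3K27ac a mark of active promoters and enhancers, while H3K27me3 is laid by Polycomb and H3K9me3 marks constitutive heterochromatin and many repeats. Accessible DNA without active marks is known to include sites bound by insulator proteins, poised or dormant enhancers and elements in transit between states. Before the embryonic genome is activated, which in cattle takes place around the 8-cell stage, embryos carry marks inherited from the oocyte, and Polycomb and heterochromatin marks are rebuilt towards the blastocyst.

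The lists differed in length. H3K4me3 lists held 21874 to 178845 peaks over 37.7 to 176 Mb of the autosomes, H3K27ac lists 43.4 to 142 Mb, H3K27me3 lists 110 to 281 Mb and H3K9me3 lists 96.6 to 188 Mb. A longer list meets more sites, so each share below stands beside the share of the autosomes inside the same lists. The unit of measurement was whether the centre base of a stretch lay inside a peak, and a stretch was counted for a group when this held in both libraries. Read depth behind the peaks is unknown, because the files hold no read totals. Coordinates are in ARS-UCD1.2.

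The no-active stretches were short. Their median width was 350 bp, with quartiles of 250 and 400 bp, against 550 bp (350 to 950 bp) for the active stretches. Only 1293 of them (12.9%) reached 500 bp and 33 reached 1000 bp, while 59.4% of active stretches reached 500 bp. The share of shared open stretches without an active peak was 37.4% at 200 to under 300 bp, 28.8% at 300 to under 500 bp, 6.89% at 500 to under 1000 bp and 0.317% at 1000 to under 2000 bp. Of the 1199 stretches of 2000 bp or more, 1 had no active peak. At the lower edge of the definition, 1097 of 3106 stretches of exactly 200 bp (35.3%) lacked an active peak, and just outside it 568 of 1982 stretches of 150 bp (28.7%) did. The share was highest at 250 bp, at 38.8%. Width and the chance to overlap a peak are tied by the selection, so these shares are given with no test.

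**Figure D1:**
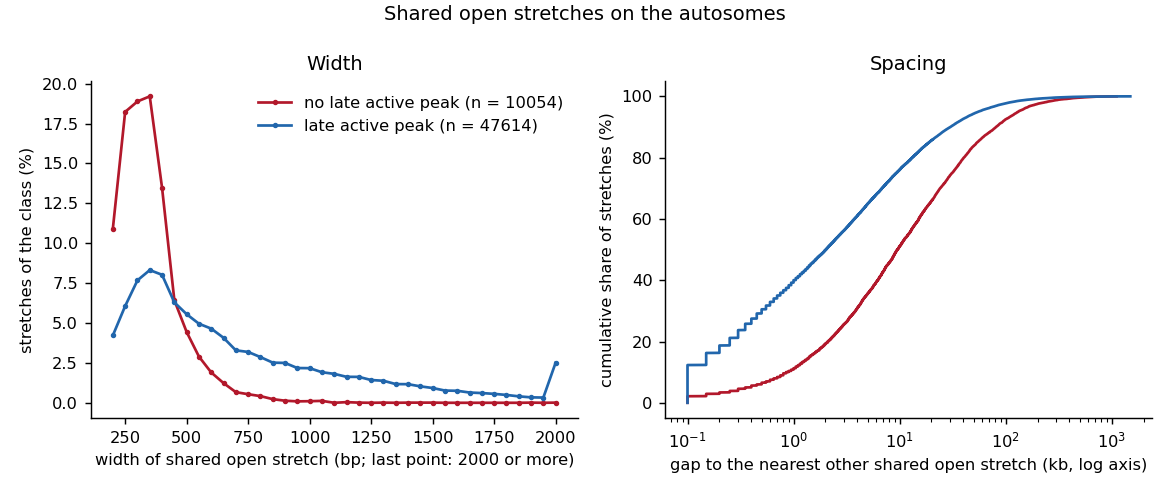
Width in 50 bp steps (left, percent of stretches in each class, the last point holding 2000 bp or more) and the cumulative share of stretches by gap to the nearest other shared open stretch (right, kb on a log axis). No-active stretches (red) peak at 350 bp and have a median gap of 9.53 kb, against 550 bp as median width and 2.00 kb as median gap for active stretches (blue).

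Spacing was wider than for active stretches as a whole. The nearest other shared open stretch lay a median of 9.53 kb from a no-active stretch and 2.00 kb from an active stretch. Such a neighbour within 10 kb was found for 51.1% against 76.0%. Stretches with an active peak in exactly 1 of the 12 lists lay in between, with 5.55 kb and 63.4%. The nearest late active peak of any list lay a median of 9.85 kb away, and the nearest late H3K4me3 peak 24.9 kb away. There were 1186 no-active stretches (11.8%) within 1 kb of a late active peak, so these lay just beside a marked element, and 593 farther than 100 kb. The most distant lay 1211 kb from any late active peak.

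No-active stretches neighboured each other more often than active stretches neighboured them, though most had an active stretch nearest. The nearest shared stretch was a no-active stretch for 37.4% of no-active stretches, for 10.8% of active stretches and for 15.4% of all. A late active peak can cover more than 1 stretch, so the selection itself can make neighbours alike, which was not tested. With gaps of up to 10 kb joined, 2571 of the 10054 (25.6%) fell into 1134 groups of 2 or more. Of these groups 220 had 3 or more, and the largest had 10. Such groups were not counted for active stretches. The 200 kb window with most of them, chr4:47100001-47300000, held 12 no-active stretches of 200 to 700 bp and 1 active stretch. In that window the stretches lay at least 20.0 kb from a late active peak, 11 of the 12 were open in all 3 BL libraries, and 3 of the 12 carried BL H3K27me3 in both libraries.

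Density varied less between chromosomes than that of active stretches. It ranged from 2.97 per Mb on chromosome 6 to 5.17 per Mb on chromosome 18, with a median over chromosomes of 4.05 per Mb, whereas active stretches ranged from 11.02 to 39.2 per Mb. The no-active share of shared stretches was lowest on chromosome 25 at 8.83% and highest on chromosome 20 at 24.2%. Over the 29 autosomes the densities of both classes had a Pearson correlation of 0.630, given as a description only. The first and last 2 Mb of each chromosome held 4.94% of no-active stretches, 6.87% of active stretches and 4.66% of the autosomal span.

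Whole blastocysts, whose ATAC lists took no part in the selection, were open at nearly all of these sites. The centre lay in a BL ATAC peak for 95.3%, 93.2% and 99.2% of no-active stretches in the 3 libraries (95.9% ± 3.02, SD, n = 3), and for 97.0%, 97.3% and 99.7% of active stretches (98.0% ± 1.46, SD, n = 3). The no-active value was the lower in every library, with differences of -0.474 to -4.03 percentage points. All 3 libraries held 9011 of the no-active stretches (89.6%), against a background of 93.9% over all 57668 stretches, and 21 were in none of the 3. The ATAC peaks around them were of middle rank. By the score the authors' lists give each peak, their median percentile within a BL list was 57.3, 59.9 and 64.1, against 83.3, 85.0 and 88.1 around active stretches. These scores describe peaks within each list only.

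H3K4me3 was frequent at these sites in the oocyte and nearly gone in the morula. The centre lay in an H3K4me3 peak for 34.2% and 38.8% of no-active stretches in the GV libraries, 27.8% and 25.5% at 2C, 25.7% and 27.9% at 4C, 17.6% and 27.4% at 8C, and 4.50% and 4.86% in morulae. The morula libraries were below every earlier library, and the 8C libraries stood furthest apart. Group means were 36.5% ± 3.26 at GV, 26.6% ± 1.59 at 2C, 26.8% ± 1.498 at 4C, 22.5% ± 6.94 at 8C and 4.68% ± 0.260 at MO (SD, n = 2 each). Differences between these 5 groups passed an exact permutation test of library pairings (p = 0.00952, adjusted p = 0.00952 over 4 marks, 945 pairings). That test asks whether the groups differ at all, and single steps between groups were not tested. H3K4me3 peaks covered less of the autosomes over the same stages, 6.37% at GV and 1.84% at MO. Relative to that coverage the enrichment was 5.76-fold at GV, 6.21-fold at 8C and 2.55-fold at MO.

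Active stretches as a whole did not show that fall. Their H3K4me3 share was 47.2% at GV, 49.3% at 8C and 52.4% at MO, and the no-active share was lower in 12 of 12 libraries, with a mean difference of -24.8 percentage points (exact sign-flip permutation test, p = 0.000488, adjusted p = 0.000977, where 0.000488 is the least such a test can give). Here and in the other sign-flip tests, the 2 libraries of a group counted as separate units. The classes were defined by active marks in BL, ICM and TE, so the direction of active-mark differences between them is tied to the selection. The part of the selection in these differences was not tested. Among stretches of 200 to 400 bp the mean difference was -9.39 points, and against stretches with a single late active list it was -4.53 points. The difference was -11.2 and -10.1 points in the GV libraries and -46.8 and -48.7 points in the MO libraries. An exact pairing permutation test of this difference over the 5 groups, added after the data were seen, gave p = 0.00212 (adjusted p = 0.00282 over 8 tests, 4 marks on 2 scales). Part of the active stretches did fall. Those with late H3K27ac and no late H3K4me3 went from 20.0% at GV to 9.69% at 8C and 6.67% at MO. No-active stretches stood above these in every library from GV to 8C and 8A, and below them at MO. Stretches with a single late active list went from 36.2% to 28.7% and 11.1%, and those with late H3K4me3 rose from 58.3% to 71.2%.

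Counted in both libraries, H3K4me3 lay over 3088 no-active stretches at GV (30.7%, background 39.5% of all stretches), 1597 at 8C (15.9%, background 39.5%) and 333 at MO (3.31%, background 41.2%). The GV share stood below its background by much less than the MO share did. A run of H3K4me3 at GV, 2C, 4C and 8C in both libraries with none at MO occurred at 681 no-active stretches (6.77%, background 3.09%), and loss between 8C and MO at 1164 (11.6%, background 5.67%). Gain between 8C and MO occurred at 34 (0.338%, background 5.86%). The rule excluded H3K4me3 in BL, ICM and TE, the groups after the morula, so the gaps between the MO shares and their backgrounds are tied to the selection. Of the 3088 stretches marked at GV, 1255 (40.6%) were marked at 8C, against 79.4% of the active stretches marked at GV.

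List length bears on this order. When every H3K4me3 list was trimmed by score to the same covered length, the no-active share was 8.72% at GV, 8.33% at 2C, 8.62% at 4C, 7.55% at 8C and 3.47% ± 1.46 at MO. The fall before the morula was then small, and the drop at the morula remained the largest step.

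**Figure D2:**
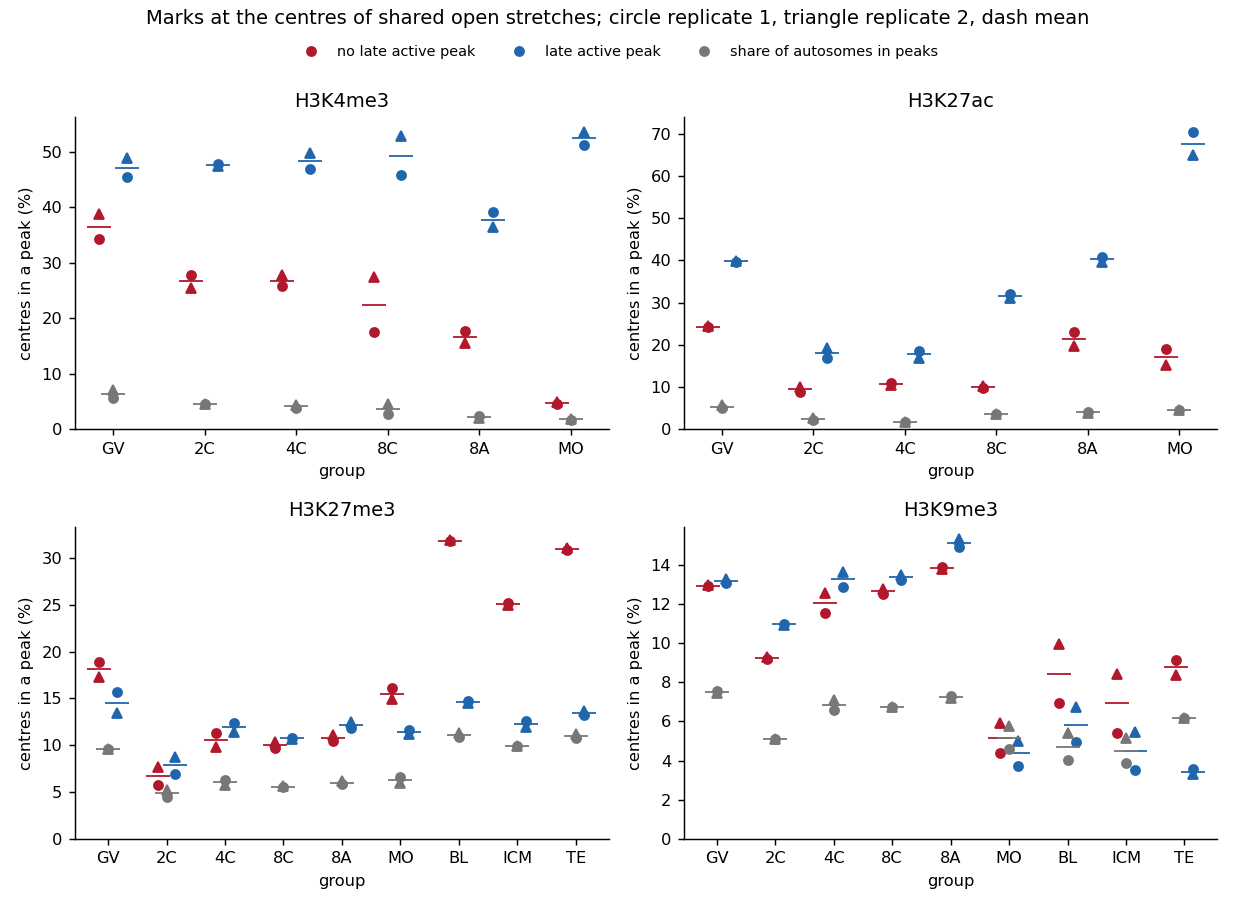
Percent of stretch centres inside a peak, by mark and group, for each library (circle replicate 1, triangle replicate 2, dash the mean of 2 libraries). No-active stretches (red) lose H3K4me3 to 4.68% in morulae while active stretches (blue) stay at 52.4%, and they rise to 31.9% H3K27me3 in BL while active stretches reach 14.6%; grey marks give the share of the autosomes inside the same lists.

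H3K27ac followed another course. Its share at no-active stretches was 24.2% and 24.4% in the GV libraries, 8.92% and 10.01% at 2C, 10.9% and 10.4% at 4C, 9.90% and 10.2% at 8C, and 19.1% and 15.2% in morulae. The 2C, 4C and 8C libraries were all below every GV and MO library. The shares differed between the 5 groups (exact permutation test of pairings, p = 0.00212, adjusted p = 0.00282). Relative to the share of the autosomes in H3K27ac peaks the order was another, with the highest enrichment at 4C. It was 4.52-fold at GV, 3.85-fold at 2C, 6.07-fold at 4C, 2.77-fold at 8C and 3.75-fold at MO. No-active stretches were below active stretches as a whole in 12 of 12 libraries. The mean difference was -20.3 points (exact sign-flip permutation test, p = 0.000488, again the least it can give, adjusted p = 0.000977). It was -11.6 points among stretches of 200 to 400 bp and -6.29 points against stretches with a single late active list. This difference too is tied to the selection. Against active stretches with late H3K27ac and no late H3K4me3 the order was mixed. No-active means were higher at GV (24.3% against 19.0%), 2C (9.46% against 8.48%), 4C (10.7% against 7.49%) and 8A (21.4% against 13.9%). They were lower at 8C (10.0% against 11.5%) and MO (17.2% against 67.6%). Active stretches stood at 70.5% and 64.9% at MO. With lists trimmed to the same covered length the no-active H3K27ac share was 5.99% at GV, 6.53% at 2C, 10.6% at 4C, 4.43% at 8C and 1.47% at MO, so the position of the morula turned from high to lowest.

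In both libraries, H3K27ac lay over 1938 no-active stretches at GV (19.3%, background 31.8%), 611 at 4C (6.08%, background 9.74%), 719 at 8C (7.15%, background 22.7%) and 1225 at MO (12.2%, background 52.7%). The early groups were nearer their background than the morula was. Sites marked at GV only, with no library positive from 2C to MO, numbered 729 (7.25%, background 2.97%). Sites marked at MO only numbered 650 (6.47%, background 19.0%). The rule excluded H3K27ac in the groups after the morula, so the gaps between MO shares and their backgrounds are tied to the selection. Both GV libraries and both MO libraries held the mark at 254 no-active stretches (2.53%, background 20.1%), which was 20.7% of the 1225 marked at MO and close to the 19.3% of all no-active stretches marked at GV. At 8C, 176 of the 1225 (14.4%) were marked. Of the active stretches marked at MO, 38.9% were marked at GV and 32.3% at 8C.

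Both active marks met at 1250 no-active stretches at GV (12.4%, background 22.9%) and at 82 at MO (0.816%, background 27.1%). At least 1 of the 5 untreated early groups had H3K4me3 or H3K27ac in both libraries at 5190 no-active stretches (51.6%, background 81.6%). So many of the sites without late active marks had carried an active mark earlier, though less often than shared open sites as a whole.

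The early active marks were most frequent at the centres of the stretches. At GV, H3K4me3 fell from 36.5% at the centre to 17.1% at 1 kb and 12.8% at 10 kb. Morula H3K27ac fell from 17.2% at the centre to 4.51% at 1 kb, below its 5.38% at 10 kb, and morula H3K4me3 from 4.68% to 1.67%. The part of the selection in this dip near 1 kb was not tested.

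**Figure D3:**
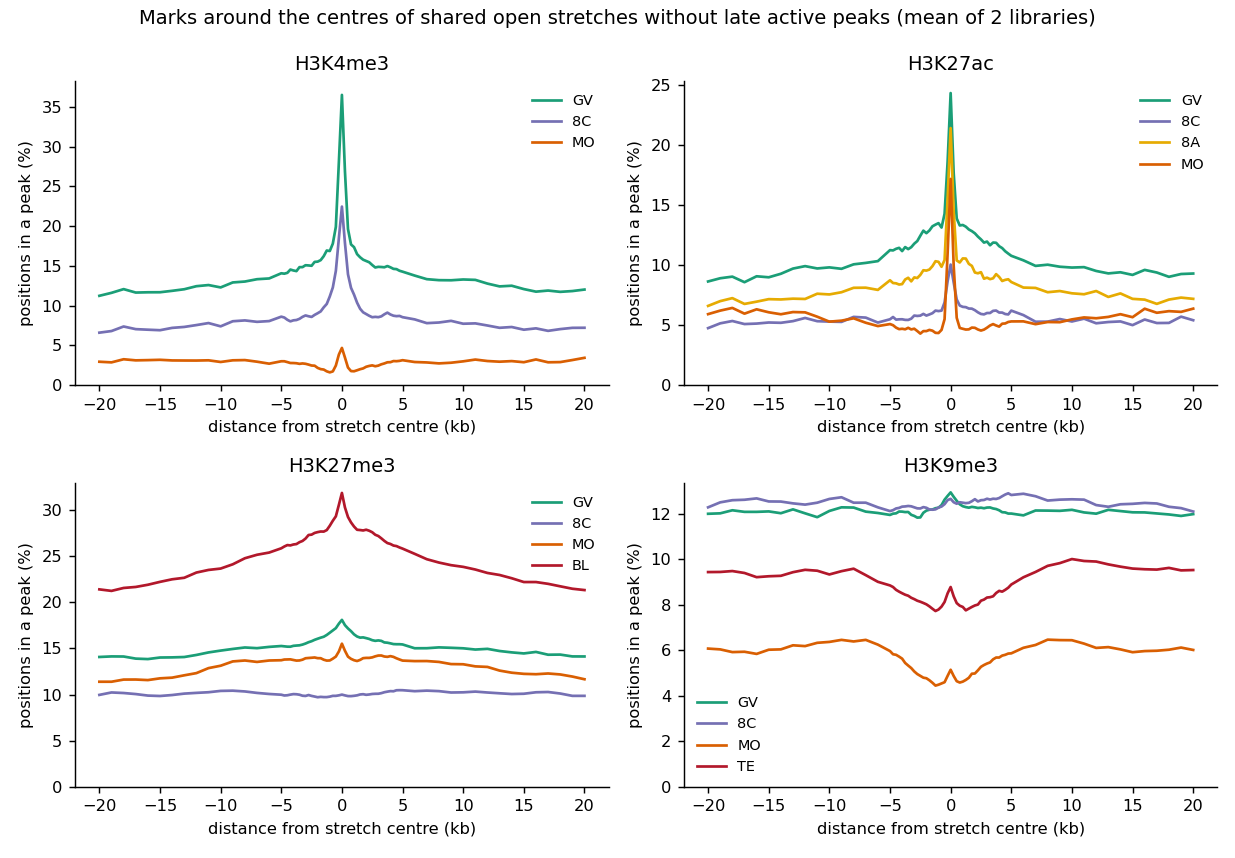
Percent of positions inside a peak at distances of up to 20 kb from the centres of the no-active stretches, as the mean of 2 libraries, for selected groups. H3K4me3 and H3K27ac show sharp peaks at the centre (GV H3K4me3 36.5%, morula H3K27ac 17.2%), BL H3K27me3 a broad rise to 31.9%, and 8C H3K9me3 an almost flat line between 12.4% and 12.7%.

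H3K27ac was more frequent at these sites in both libraries of embryos grown in α-amanitin than in both libraries of untreated embryos of the same age. The centre lay in an H3K27ac peak for 23.2% and 19.6% of no-active stretches in the 8A libraries and for 9.90% and 10.2% in the 8C libraries. Both 8A libraries were above both 8C libraries, with a difference of 11.4 points, though with 2 libraries against 2 the exact permutation test cannot go below 0.333, which is the p it gave (adjusted p = 0.500 over 6 comparisons). Active stretches stood at 40.2% in 8A and 31.5% in 8C. H3K27ac lists covered about as much of the autosomes in 8A (4.05% and 3.93%) as in 8C (3.64% and 3.61%). With trimmed lists the no-active shares were 7.96% in 8A and 4.43% in 8C.

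Site by site, 1545 no-active stretches had H3K27ac in both 8A libraries (15.4%, background 30.3%). There were 851 with H3K27ac in both 8A libraries and neither 8C library (8.46%, background 9.67%) and 150 with the reverse (1.49%, background 3.51%). Among the 851, 191 had been marked in both 4C libraries (1.9% of no-active stretches, background 1.62%) and 285 in both GV libraries (2.83%, background 3.95%). Of the 611 no-active stretches with 4C H3K27ac, 528 (86.4%) had it in both 8A libraries and 270 (44.2%) in both 8C libraries. For active stretches with 4C H3K27ac these shares were 91.6% and 69.1%. Over the 4 pairings of single libraries, 75.6% to 83.7% of no-active stretches with 4C H3K27ac had it in 8A and 39.3% to 42.0% had it in 8C, so the ranges did not overlap.

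H3K4me3 leaned the other way. It was 17.7% and 15.6% in the 8A libraries and 17.6% and 27.4% in the 8C libraries, which overlap (difference of means -5.82 points, exact permutation test, p = 0.667, adjusted p = 0.667). With trimmed lists the difference became 4.10 points, so its direction is not settled, and it was -10.7 points without the first 8C library and -0.920 without the second. Gains in 8A were at 33 no-active stretches (0.328%, background 0.194%) and losses at 267 (2.66%, background 4.87%). The repressive marks differed little between 8A and 8C, by 0.751 points for H3K27me3 and 1.204 points for H3K9me3 (p = 0.333 each by the exact permutation test, again its lower limit, adjusted p = 0.500). With trimmed lists these became 0 and 0.274 points.

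H3K27me3, the Polycomb mark, was more frequent at these sites in BL, ICM and TE than at any earlier stage in the lists as deposited. Its share at no-active stretches was 18.9% and 17.3% at GV, 5.74% and 7.70% at 2C, 11.3% and 9.80% at 4C, 9.68% and 10.3% at 8C, 16.1% and 14.9% at MO, 31.8% and 32.0% in BL, 25.2% and 25.0% in ICM, and 30.9% and 31.1% in TE. The 2C libraries were the lowest, and the BL, ICM and TE libraries stood above every earlier library. The groups differed (exact permutation test over 2027025 pairings, p = 1.97e-06, adjusted p = 7.89e-06). Relative to the share of the autosomes in H3K27me3 peaks, the enrichment went from 1.38-fold at 2C to 2.47-fold at MO and 2.87-fold in BL. In lists trimmed to the same covered length the share was 9.63% at GV, 6.21% at 2C, 8.11% at 8C, 11.07% at MO, 12.8% in BL, 10.97% in ICM and 12.9% in TE, so the ICM then no longer stood above the morula.

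Active stretches did not gain H3K27me3 to the same extent in the lists as deposited. They stood at 7.85% at 2C, 10.7% at 8C, 11.4% at MO and 14.6% in BL. With trimmed lists they stood at 7.38% at 2C, 8.85% at 8C, 7.67% at MO and 5.12% in BL. Their gain towards the blastocyst then turned into a loss. No-active stretches were the lower class at 2C, 4C, 8C and 8A, with differences of -0.729 to -1.41 points, and the higher class at GV, MO, BL, ICM and TE, by 3.54, 4.08, 17.2, 12.8 and 17.5 points. Over all 18 libraries the mean difference was 5.62 points, with 10 libraries higher and 8 lower (exact sign-flip permutation test, p = 0.00777, adjusted p = 0.0104). That test counted each library as independent, although both libraries of every group lay on the same side. A test with the 9 groups as units was not run, so the p does not measure spread between stages. Among stretches of 200 to 400 bp the call was lost (3.89 points, exact permutation test, p = 0.0512), while at 400 bp or more the difference was 10.2 points. With trimmed lists it was 2.51 points (exact permutation test, p = 0.0126). This difference varied between the 8 untreated groups (exact permutation test of pairings added after the data were seen, p = 2.02e-05, adjusted p = 4.34e-05 over 8 tests). Active stretches were chosen by peaks in BL, ICM and TE, the groups where the difference was largest. BL H3K27me3 was 7.29% at active stretches with late H3K27ac and no late H3K4me3, and 17.7% at those with late H3K4me3. At 8C these shares were 15.3% and 8.83%, against 10.0% at no-active stretches. Compared with only the active stretches that had late H3K4me3, no-active stretches were higher in every library. The part of the selection in the late differences was not tested.

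The contrast with active stretches depends on which of them are taken. The 3024 stretches with an active peak in exactly 1 of the 12 lists, which also had a median width of 350 bp, had BL H3K27me3 at 26.5% and 8C H3K27me3 at 14.5%. Against these alone the mean difference over 18 libraries was -0.626 points (exact sign-flip permutation test, p = 0.544). That mean joins differences of opposite sign. No-active stretches were lower from GV to MO and in 8A, with 6.72% against 10.7% at 2C and 10.0% against 14.5% at 8C. They were higher in the late groups, with 31.9% against 26.5% in BL, 25.1% against 21.3% in ICM and 31.0% against 25.2% in TE. BL H3K27me3 was 31.9% with no late active list, 20.6% with 2 to 5, 26.2% with 6, 12.3% with 7 to 11 and 1.89% with all 12. Median width rose along the same classes from 350 to 1100 bp.

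**Figure D4:**
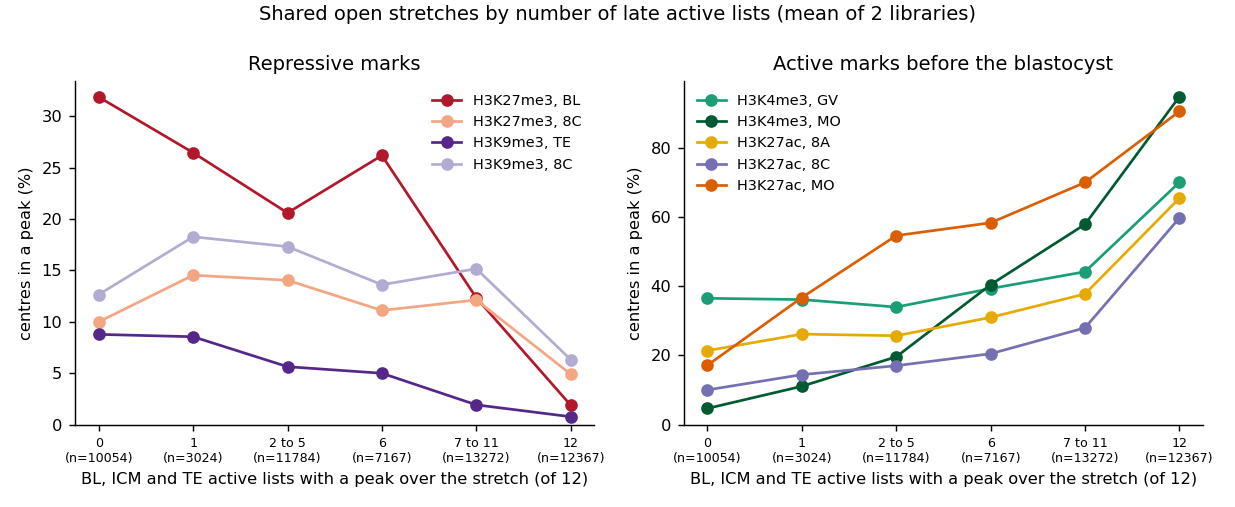
Percent of stretch centres inside a peak against the number of BL, ICM and TE active lists over the stretch, from 0 (the no-active stretches) to all 12, as the mean of 2 libraries. BL H3K27me3 goes from 31.9% to 1.89% with a second high of 26.2% at 6 lists, while morula H3K27ac rises from 17.2% to 90.6% and GV H3K4me3 stays between 34.0% and 44.2% until the class of all 12 lists.

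In both libraries, H3K27me3 lay over 1501 no-active stretches at GV (14.9%, background 12.5%), 787 at 8C (7.83%, background 8.68%), 1327 at MO (13.2%, background 10.5%) and 2904 in BL (28.9%, background 15.9%). The share was near its background until the morula and above it in the blastocyst. Presence in BL with neither 8C library positive was found at 2448 (24.3%, background 13.8%), and the reverse at 441 (4.39%, background 6.87%). Of the 1501 stretches marked at GV, 71.2% were marked in BL, and of the 1327 marked at MO, 89.8% were, against 50.0% and 74.3% of the active stretches marked at GV and MO. The mark was in both BL libraries and in no library from GV to MO at 759 no-active stretches (7.55%, background 3.26%).

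The Polycomb domains that held such sites were broad. BL H3K27me3 peaks around a no-active stretch had a median width of 15.8 and 16.0 kb in the 2 libraries, against 9 and 8.20 kb for all BL H3K27me3 peaks, and the stretch lay a median of 3.15 and 3.05 kb from the nearer edge. Longer peaks hold more sites, so a size difference of this kind is built into the comparison. BL H3K27me3 was 28.3% at 1 kb, 23.8% at 10 kb and 18.7% at 50 kb from the centres, all above the 11.1% of the autosomes covered.

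Between the lineages, H3K27me3 was less frequent in both ICM libraries than in both TE libraries. The values of 25.2% and 25.0% in ICM were below the 30.9% and 31.1% in TE, a difference of -5.92 points (p = 0.333 by the exact permutation test, the least that 2 against 2 libraries allow, adjusted p = 0.500). With trimmed lists the difference was -1.94 points. Active stretches were at 12.2% in ICM and 13.5% in TE, and the lists covered 9.88% and 10.97% of the autosomes. The mark was in both libraries of both lineages at 1866 no-active stretches (18.6%, background 10.0%). It was in TE and neither ICM library at 648 (6.45%, background 3.46%) and in ICM and neither TE library at 200 (1.99%, background 1.99%). So the share found in TE alone exceeded its background and the share in ICM alone equalled it.

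H3K9me3, the heterochromatin mark, was lowest in the morula and stayed below its 4C and 8C levels afterwards. It lay over 12.9% and 12.97% of no-active stretches at GV, 9.19% and 9.27% at 2C, 11.5% and 12.6% at 4C, 12.5% and 12.8% at 8C, 4.38% and 5.91% at MO, 6.94% and 9.96% in BL, 5.42% and 8.44% in ICM, and 9.16% and 8.39% in TE. The morula libraries were below every library before them, the BL libraries lay on either side of the 2C values, and the TE libraries just under them. The groups differed (exact permutation test of pairings, p = 0.00168, adjusted p = 0.00282). Relative to coverage the enrichment was 1.88-fold at 8C, 0.9901-fold at MO, 1.79-fold in BL and 1.42-fold in TE. Active stretches went from 13.4% at 8C to 4.36% at MO, 5.84% in BL and 3.42% in TE, so the lower morula level was common to both classes.

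Averaged over 18 libraries, H3K9me3 at no-active and active stretches differed by 0.669 points, with 8 libraries higher and 10 lower (exact sign-flip permutation test, p = 0.241, adjusted p = 0.241). By group, the no-active stretches were the lower class from GV to 8C and in 8A and the higher class from MO on, by 5.35 points in TE. The difference varied between the 8 untreated groups (exact permutation test of pairings added after the data were seen, p = 2.17e-05, adjusted p = 4.34e-05 over 8 tests). At 8C, active stretches with late H3K27ac and no late H3K4me3 stood at 19.5% and those with late H3K4me3 at 10.8%, against 12.7% at no-active stretches. Compared with only the active stretches that had late H3K4me3, no-active stretches were higher in every library. In TE the stretches with a single late active list stood at 8.55%, close to the 8.78% of the no-active stretches. Against those stretches the mean difference over 18 libraries was -3.48 points (exact sign-flip permutation test, p = 3.05e-05).

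Counts in both libraries were 1036 at 8C (10.3%, background 11.2%), 387 at MO (3.85%, background 3.39%), 617 in BL (6.14%, background 4.63%) and 691 in TE (6.87%, background 3.31%). H3K9me3 was lost between 8C and MO at 875 no-active stretches (8.70%, background 9.91%). It was in both TE and neither ICM library at 240 (2.39%, background 1.06%) and in ICM and neither TE library at 120 (1.19%, background 1.35%). The ICM and TE shares themselves differed by -1.85 points, with libraries that overlapped (exact permutation test, p = 0.667, adjusted p = 0.667), and with trimmed lists the sign turned to 0.343 points. Of the 691 stretches with TE H3K9me3, 166 (24.0%) lay in the first or last 2 Mb of a chromosome. In the TE libraries 20.5% and 19.5% of all H3K9me3 peak bases lay there too.

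The repressive marks overlapped strongly in cleavage embryos and little outside them. At 8C, 686 no-active stretches carried H3K27me3 and H3K9me3 in both libraries (6.82%, background 7.75%), which was 87.2% of those with H3K27me3. This share was 5.86% at GV, 70.6% at 2C, 85.3% at 4C and 88.6% in 8A, then 17.9% at MO and 18.6% in BL (540 stretches, 5.37%, background 3.05%). Active stretches followed the same course, with 89.8% at 8C and 19.4% in BL.

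Early H3K9me3 also depended on surroundings. At 8C it lay over 20.7% of no-active stretches within 1 kb of a late active peak, 14.5% at 1 to 5 kb, 13.5% at 5 to 20 kb, 8.29% at 20 to 100 kb and 5.40% beyond 100 kb. 8C H3K27me3 fell likewise from 16.2% to 5.73%. BL H3K27me3 had no such order, with 31.0% in the nearest class, 32.8% at 5 to 20 kb and 25.3% beyond 100 kb. TE H3K9me3 was 8.39% in the nearest class and 9.27% in the farthest.

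No-active stretches with early H3K4me3 carried H3K27me3 in BL more often than those without it. Of the 3088 marked at GV, 1750 (56.7%) had BL H3K27me3 in both libraries, against 16.6% of those not marked in both GV libraries. For 2C H3K4me3 the shares were 67.4% and 18.8%, and for 8C H3K4me3 68.3% and 21.4%. Over the 4 pairings of single libraries the GV contrast ranged from 55.8% to 58.3% with the mark and from 16.5% to 18.3% without it. Active stretches had 23.7% with GV H3K4me3 and 5.84% without.

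The contrast was present at each width. Among stretches of 200 to 250 bp, BL H3K27me3 was 55.2% with GV H3K4me3 and 13.4% without, and among those of 500 bp or more 61.5% and 25.5%. Early H3K27ac went the same way until the morula. BL H3K27me3 was at 40.5% with GV H3K27ac and 26.1% without, 70.7% and 26.8% for 2C, 56.5% and 27.1% for 4C, and 42.8% and 27.8% for 8C. For morula H3K27ac the order turned, with 17.1% of the stretches that had it and 30.5% of those that did not. These are descriptions of sites that share libraries and neighbourhoods, and carry no test.

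**Figure D5:**
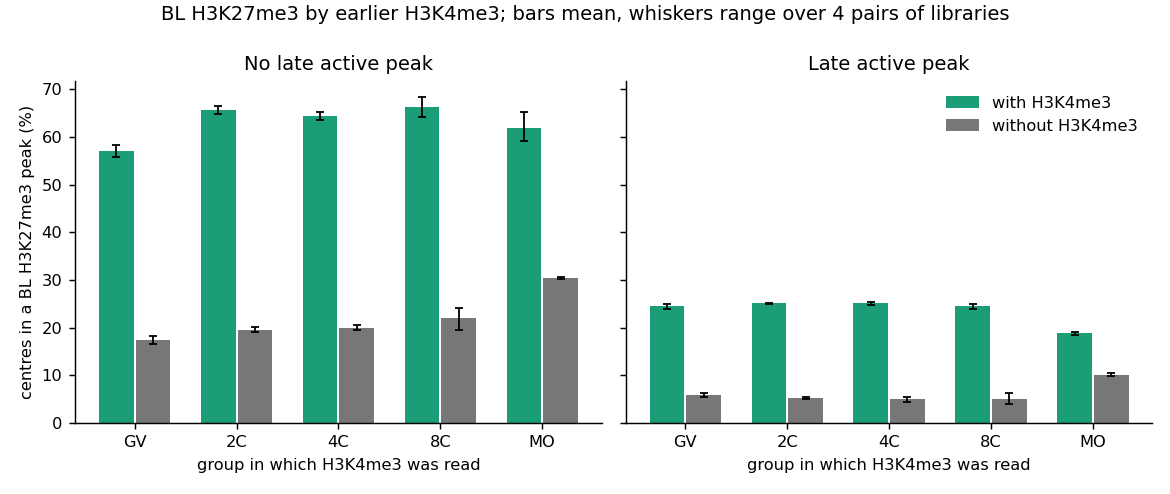
Percent of stretch centres inside a BL H3K27me3 peak for stretches with H3K4me3 (green) and without it (grey) at each earlier group; bars are means and whiskers the range over 4 pairings of single libraries. In no-active stretches (left) the share is 57.0% with GV H3K4me3 and 17.4% without, and in active stretches (right) 24.5% and 5.85%.

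The wider no-active stretches carried more of every mark shown here. From 200 to 250 bp up to 500 bp or more, GV H3K4me3 rose from 24.7% to 54.4%, morula H3K27ac from 13.6% to 24.0%, BL H3K27me3 from 24.0% to 46.4% and TE H3K9me3 from 6.74% to 13.03%. ATAC signal in BL rose from 92.0% to 98.6%. These classes were read at the centre base, so the width itself adds no bases to the call.

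A part of the stretches met no mark at all. No peak of any of the 72 CUT&Tag lists touched 1560 of them (15.5%, background 2.71%, which the definition bounds from above since active stretches cannot qualify). These had a median width of 300 bp, lay a median of 16.0 kb from a late active peak and 17.6 kb from the next shared stretch, and were in all 3 BL ATAC lists in 79.7% of cases, against 91.4% of the remaining no-active stretches. No repressive peak of BL, ICM or TE touched 5780 no-active stretches (57.5%, background 73.3%).

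Single regions show the range of histories. The widest no-active stretch, chr7:50263201-50265700 (2500 bp), had no active peak at its centre from GV to MO, H3K9me3 in 10 of 18 libraries (all those from GV to 8C and 8A) and H3K27me3 in 6, and was open in all 3 BL libraries. Next, chr1:10418251-10420150 (1900 bp) had H3K4me3 in 11 of 12 early libraries, H3K27ac in 6, and H3K27me3 in the MO, BL and ICM libraries but in neither TE library. The stretch chr16:70917151-70918650 (1500 bp) had H3K4me3 in 6 libraries, none of them from 8A or MO, and no H3K27ac. At chr3:74185601-74187050 (1450 bp), H3K4me3 was in 12 of 12 early libraries and H3K27me3 in both libraries of GV, MO, BL, ICM and TE. The fifth, chr19:57552701-57554100 (1400 bp), lay 90.9 kb from a late active peak and had H3K4me3 in 7 and H3K27ac in 6 early libraries. So 4 of the 5 widest had early H3K4me3 and the widest had none.

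Few stretches of either class carried a repressive mark throughout. H3K9me3 was in all 18 libraries at 23 no-active stretches (0.229%, background 0.201%), the widest being chr6:5441501-5442000 (500 bp), where H3K27me3 was also in all 18, then chr18:57289251-57289750 (500 bp) and chr27:982901-983350 (450 bp). H3K27me3 was in all 18 libraries at 34 (0.338%, background 0.265%), led by chr8:109608601-109609200 (600 bp), chr29:51067401-51068000 (600 bp) and chr3:93167701-93168250 (550 bp). H3K4me3 was in all 12 early libraries at 133 (1.32%, background 17.2%), led by the stretch at chr3:74185601-74187050, then chr3:95930951-95931950 and chr12:69193451-69194450 (1000 bp each). All 3 of these had H3K27me3 in both MO, both BL and both ICM libraries. H3K27ac was in all 12 at 13 (0.129%, background 1.54%), led by chr2:69535001-69535850 (850 bp), chr4:105599351-105599950 and chr4:105624251-105624850 (600 bp each).

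The widest stretches that met no mark were chr6:91887051-91888200 (1150 bp), chr9:13006051-13007000 (950 bp) and chr15:41883701-41884500 (800 bp). Each was open in all 3 BL libraries. Their distances to the nearest late active peak were 1.65, 0.500 and 9.05 kb, so they did not lie far from marked elements. Genes and sequences at these coordinates were not analysed here.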

How the data were processed

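Peak lists of 72 CUT&Tag and 9 ATAC-seq libraries were analysed. Per the submitters' processing notes, the build was ARS-UCD1.2, the aligner BWA (0.7.9a) and the peak caller SICER; trimming used cutadapt (1.8.3) within Trim Galore (0.4.0), and alignments passed through SAMtools (1.9) and Picard (2.26.10). Settings of the peak caller were not given in the sources at hand. The authors deposited 1 list per library, so replicates were not pooled. Column 5 of each deposited list is a score whose definition is not given, and it was used only to rank peaks within a list. ATAC and active-mark peaks lie on a 50 bp grid and repressive-mark peaks on a 200 bp grid, which limits widths and gaps.

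All lists were cut to autosomes 1 to 29 (95.5% of 4930009 peaks), and the 6 ICM and TE ATAC lists were intersected. Runs of 200 bp or more were kept and compared with the 12 late active lists. A stretch was called for a library when its centre base lay in a peak, and for a group when this held in both libraries. Groups were compared with exact permutation tests over libraries: pairings of libraries for stages (8A left out), sign flips for no-active against active stretches, and 2 against 2 libraries for 8A against 8C and ICM against TE. The sign flips took each library as a unit, so the 2 libraries of a group entered as independent. P-values were adjusted by Benjamini-Hochberg within families of 4, 4 and 6, and over 8 for the tests of that difference between groups added later. The procedures were tested on simulated data. Python 3.11.15, NumPy 2.4.6 and pandas 2.3.3 were used. Named regions were the 5 widest members, the 3 widest with a mark in all its libraries or with none, and the densest window of 200 kb in steps of 50 kb. The members, lists and tests were chosen with earlier results of these data known. Alternatives covered width, overlap, thresholds, list length, chromosome ends, the replicate block and each library left out.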

Additional observations from a re-analysis of the deposited data

Results flagged for a closer look

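The difference between no-active stretches and active stretches as a whole turned over between groups for both repressive marks. Every library of a group lay on the same side. For H3K27me3, no-active stretches were above active stretches by 3.54 percentage points at GV, 4.08 at MO, 17.2 in BL, 12.8 in ICM and 17.5 in TE. They were below by a difference of -1.13 points at 2C, -1.37 at 4C, -0.729 at 8C and -1.41 in 8A. For H3K9me3, they were above by 0.780 points at MO, 2.61 in BL, 2.45 in ICM and 5.35 in TE, and the difference was -0.242 at GV, -1.73 at 2C, -1.22 at 4C, -0.711 at 8C and -1.27 in 8A. An exact permutation test of the gap over the 8 untreated groups gave p = 2.02e-05 for H3K27me3 and p = 2.17e-05 for H3K9me3 (adjusted p = 4.34e-05 each, over 8 tests), and as log2 ratios p = 5.92e-06 and p = 4.93e-07, the latter the smallest possible. These tests were chosen after the data were seen. The turn depended on which active stretches were taken. Against only those with late H3K4me3, no-active stretches were higher in every library for both marks. Those with late H3K27ac and no late H3K4me3 stood at 15.3% H3K27me3 and 19.5% H3K9me3 at 8C. The active class was defined by peaks in BL, ICM and TE, and the part of that selection in the late differences was not tested.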

How the results depend on the processing

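Of 290 recomputed values, 282 had no reversed sign and stayed on their side of the 0.05 threshold. For the number of stretches, staying within 1.5 times counted instead. Among the 282, 8A minus 8C for H3K27me3 became 0 with trimmed lists. Comparisons of 2 against 2 libraries could not cross the threshold, since their p cannot go below 0.333. Stage tests were judged on p alone. The H3K27ac stage test thus counted as unchanged with trimmed lists, although the morula turned from high to lowest. The number of no-active stretches was 3294 with a minimum width of 400 bp, 10947 with 100 bp, 8869 when BL ATAC was also required, 14533 when only active peaks found in both libraries counted, 8918 without an active peak within 1 kb and 7665 with the 75% highest scores; leaving out 1 list gave 10096 to 11168. With mark lists trimmed to 1 covered length, 8A minus 8C for H3K4me3 became 4.10 points and ICM minus TE for H3K9me3 0.343 points. Against active stretches, H3K27me3 was 3.89 points at 200 to 400 bp (p = 0.0512, exact permutation test), and H3K9me3 was -1.22 there (p = 0.0827, exact permutation test) and 2.47 at 400 bp or more (p = 0.00203, exact permutation test). Limiting the comparison to stretches with 1 late active list, added after the data were seen, gave -0.626 for H3K27me3 and -3.48 for H3K9me3. The H3K27me3 value is a mean of early differences below 0 and late ones above 0. The causes were not tested. Leaving out each library in turn, the exact permutation p of the stage test ran from 0.00212 to 0.0275 (H3K4me3), 0.00106 to 0.00847 (H3K27ac), 4.93e-07 to 4.44e-06 (H3K27me3) and 0.000652 to 0.00672 (H3K9me3). The replicate numbers did not pair the libraries, since correlations of replicate deviations between groups ran from -0.0244 to 0.0815; with the replicate block the exact permutation p for stages was 0.0333, 0.00833, 7.44e-05 and 0.00223 in the same order, and no call changed. Depth of reads could not be weighed.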
